A study of Mus musculus with 8 samples.

Results

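Condensin subunits were followed in ribosome profiling and matched input libraries of mouse embryonic fibroblasts (MEF). The set holds the 8 genes of condensin I and condensin II, namely Ncapd2, Ncapg and Ncaph (condensin I), Ncapd3, Ncapg2 and Ncaph2 (condensin II), and Smc2 and Smc4, which both complexes contain. The genes were looked up by symbol, and all 8 were among the 9307 genes of the table. The set was chosen by the values of Ncapd2, which were lower in both input and ribosome-protected fragments (RPF) of the overexpressing cells, so those differences of Ncapd2 are given as a description without a test. The other 7 genes entered as subunits, whatever their values.

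All cells were a wild-type MEF line with SV40 T antigen, which immortalises cells. Control cells had been stably transduced with empty vector (EV). The other cells carried pBabe vectors for wild-type METTL1 and WDR4 (OE), the catalytic and partner subunits of a complex that methylates a guanosine in some tRNAs. Stable clones were kept under puromycin and G418, without antibiotic during expansion and lysis, and cycloheximide was given before lysis to halt ribosomes. Input and RPF were sequenced for each genotype, which makes 4 groups of 2 libraries. Neither the number of clones nor separate cultures are stated, so p-values reflect only how far these libraries spread, possibly for technical reasons, and clone and transgene cannot be told apart.

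Condensins are ring-shaped machines that use ATP to draw DNA into loops and so compact chromosomes for mitosis. SMC2 and SMC4 are the ATPases, NCAPH and NCAPH2 are the kleisins that close the ring, and NCAPD2, NCAPG, NCAPD3 and NCAPG2 are subunits built of HEAT repeats that bind DNA and regulate the complex. Condensin II stays in the nucleus through interphase and starts compaction in prophase, whereas condensin I reaches chromosomes after the nuclear envelope breaks down.

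The libraries held 294367 to 371520 input reads and 526699 to 864147 RPF reads in listed genes. Values below are reads divided by a size factor of the library, where 1 read counted as 1.27 to 1.61 in input and as 0.549 to 0.898 in RPF. In input the least sequenced condensin subunit was Ncaph, with 29 to 55 reads per library, and the most sequenced was Smc4, with 245 to 393. In RPF the lowest count of any subunit in a library was 56 (Ncapg2) and the highest 551 (Smc4). Of the fixed fibroblast markers, 8 of 10 were listed, with summed values of 4864 to 5047 in EV input and 5613 to 5813 in OE input. Markers of epithelium (2 of 5 listed), leukocytes (1 of 5) and adipocytes (1 of 4) summed to at most 24.2, 9.32 and 15.1 in any library. Neural markers (3 of 5) summed to 73.0 to 96.0, and none of the 4 endothelial or 4 muscle markers was listed. Mettl1 stood in input at 16.7 and 14.0 (EV) and at 33.7 and 16.0 (OE; log2 change 0.58, SE 0.34, adjusted p = 0.482). In RPF it stood at 25.7 and 25.6 (EV) and at 40.1 and 22.45 (OE), and in both kinds of library the genotypes overlapped. Wdr4 stood at 16.7 and 26.75 (EV) and at 24.1 and 42.6 (OE) in input, and at 15.2 and 15.1 (EV) and 25.8 and 24.2 (OE) in RPF, where the genotypes did not overlap (log2 change 0.69, SE 0.32, adjusted p = 0.454). Neither gene passed the test, and whether reads of the vector were counted for the mouse gene is not known.

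**Figure D1:**
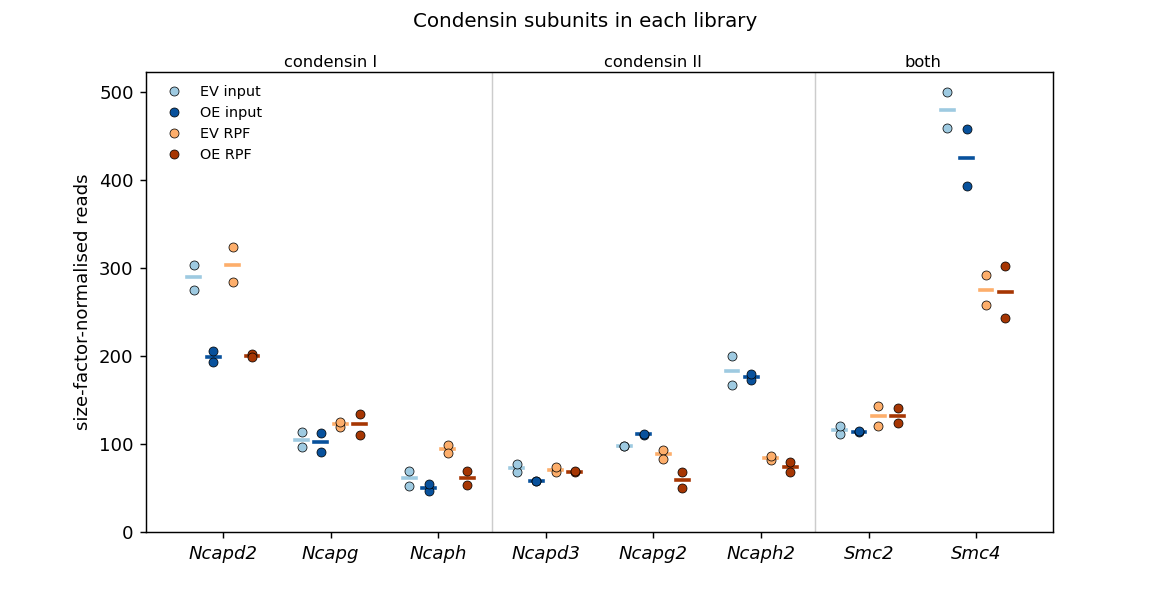
Size-factor-normalised reads (y axis) of the 8 condensin genes in each library, with points for the 2 libraries of a group and a short line for their mean. Ncapd2 lies near 200 in all 4 OE libraries and between 275 and 324 in the EV libraries, and Smc4 has the highest input values.

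Ncapd2 encodes a HEAT repeat subunit of condensin I (ENSMUSG00000038252.13, build mm10, chromosome 6, 125168007 to 125191701, minus strand). The EV input libraries read 304 and 275, and the OE input libraries 206 and 193. For footprints the EV libraries read 324 and 284, and the OE libraries 202 and 199. Both OE libraries lay below both EV libraries in input and in RPF, with no overlap. The input mean went from 290 ± 20.6 to 199 ± 8.84 (SD, n = 2), a log2 change of -0.54 (SE 0.12). The RPF mean went from 304 ± 28.2 to 201 ± 1.84 (SD, n = 2), a log2 change of -0.59 (SE 0.12). Subtracting the mRNA change from the RPF change left -0.06 (SE 0.17), so footprints and mRNA were lower by similar factors. Fewer cells in mitosis and less Ncapd2 RNA per cell cannot be told apart in such bulk samples. Exons of Ncapd2 share at most 7.53% of their bases with the small RNA gene Scarna10 and a transcript inside its introns. That share was summed over both, so any bases common to both were counted more than once. All coding 28-base stretches of Ncapd2 were found in no other gene.

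The annotated promoter of Ncapd2 is shown because the mRNA of that subunit differed most between the genotypes. It covers 250 bases before the start site and 50 after it, chr6:125191537-125191836 on the minus strand (RefSeq, GRCm38.p6). Capitals mark the letters TTTGAA (the core of the cell cycle homology region), CCAAT on the reverse strand (read here as ATTGG, the NF-Y box), and TTTGGCGC (an E2F-type motif).

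Ncapd2: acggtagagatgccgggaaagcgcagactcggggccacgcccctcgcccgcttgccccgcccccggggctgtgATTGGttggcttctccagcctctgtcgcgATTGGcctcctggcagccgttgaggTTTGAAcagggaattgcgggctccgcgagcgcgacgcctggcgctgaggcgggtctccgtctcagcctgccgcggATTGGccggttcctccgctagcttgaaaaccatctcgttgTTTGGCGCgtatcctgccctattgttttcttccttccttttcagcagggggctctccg

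Counted from the start site, the CCAAT letters began at -177, -148 and -48, TTTGAA at -123 and TTTGGCGC at -8. Motifs were searched on both strands in the 7 condensin genes matched in the promoter table. TTTGAA was found in 4 of the 7 (Ncapd2, Ncapg, Ncapg2 and Smc2), against 18.1% of 27025 promoters of the same length. CCAAT was in 3 (Ncapd2, Ncapg and Smc2), against 37.9% of promoters. TTTGGCGC was in Ncapd2 alone among the 7, against 0.537% of promoters, and GCGGGAA, another E2F-type motif, was in Ncapg and Ncapg2, against 4.66%. These letters overlapped no other motif searched. A match is a description of sequence and not a site of binding.

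The surroundings of TTTGAA in the other 3 genes are given for comparison, with the motif in capitals (TTCAAA where it lies on the reverse strand). They lie at chr5:45669883-45669912 (Ncapg), chr12:116405406-116405435 (Ncapg2) and chr4:52439064-52439093 (Smc2), all on the plus strand. Smc2 holds the letters at 2 places, -145 and 27, and the first is shown.

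Ncapg: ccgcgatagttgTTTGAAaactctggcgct

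Ncapg2: tacgcgggtgtgTTTGAAtctggtccgagc

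Smc2: tcgctttccatgTTCAAAacggtatagtct

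Levels of different subunits were set side by side as normalised reads per kb of coding sequence, as a description. In EV RPF the highest levels per kb were those of Ncapd2 (72.7 ± 6.75) and Smc4 (71.3 ± 6.20, SD, n = 2), whose libraries overlapped. A middle group followed, with Ncaph2 at 46.3 ± 1.61, Ncaph at 43.1 ± 3.21, Ncapg at 40.6 ± 1.17 and Smc2 at 36.9 ± 4.43 (SD, n = 2). Neighbours within that group overlapped in their library values. The condensin II subunits Ncapg2 (25.9 ± 2.08) and Ncapd3 (15.7 ± 0.815, SD, n = 2) had the lowest RPF levels per kb, each apart from its neighbours. In OE RPF the order began with Smc4 (70.7 ± 10.8), followed by Ncapd2 (48.0 ± 0.440, SD, n = 2), and ended again with Ncapg2 and Ncapd3.

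The mean RPF level per kb of the 3 condensin I subunits was 1.86 and 1.70 times that of the 3 condensin II subunits in the EV libraries and 1.58 and 1.62 times in the OE libraries. In input the same ratio was below 1, at 0.840 and 0.986 in EV and 0.719 and 0.754 in OE. The input order rested on the length used and on Ncaph2 (101 ± 12.9 per kb in EV input, SD, n = 2), the least certain gene of the set. Per kb of the longest transcript the input ratio was 1.17 and 1.33 in EV and 0.977 and 1.02 in OE. Without Ncaph2, per kb of coding sequence, it was 1.97 in both EV libraries and 1.49 and 1.59 in OE. In RPF, condensin I was above condensin II with either length and with or without Ncaph2. Smc4 exceeded Smc2 by 3.81 and 3.83 times per kb in EV input but by 2.24 and 1.67 times in EV RPF. In OE the ratio of Smc4 to Smc2 was 3.20 and 3.71 in input and 1.99 and 1.82 in RPF. With the longest transcript in place of the coding length the EV RPF ratios were 2.65 (Smc4 over Smc2) and 2.29 (condensin I over condensin II).

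**Figure D2:**
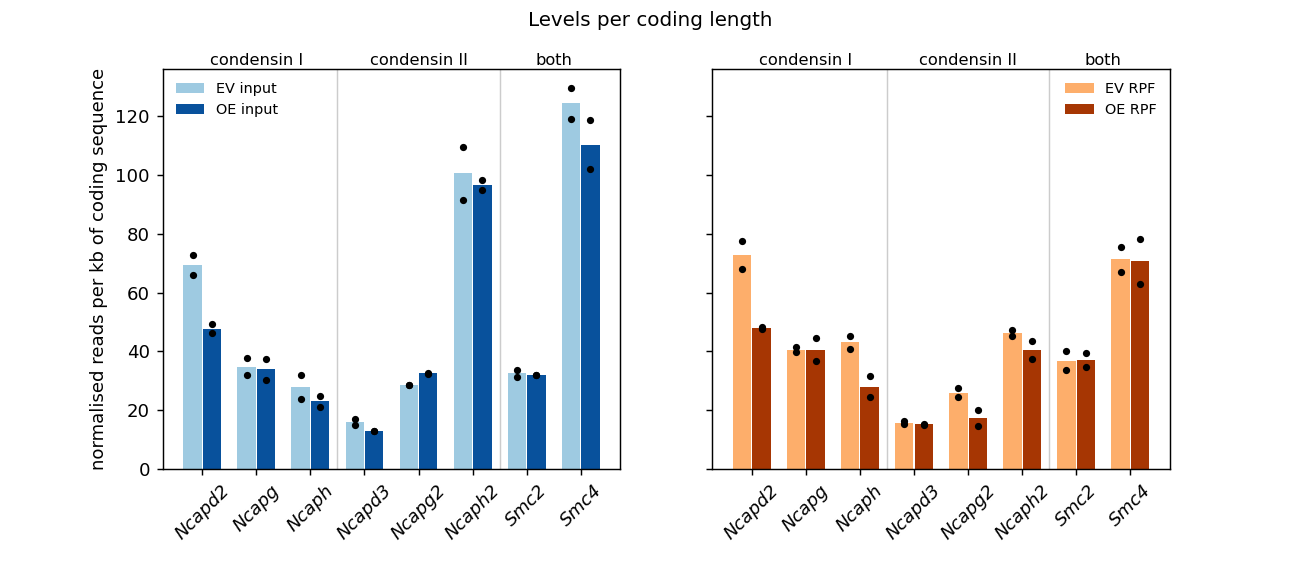
Normalised reads per kb of coding sequence (y axis) in input (left) and RPF (right), with bars for group means from 0 and points for the 2 libraries. Smc4 and Ncaph2 stand highest in input, at 124 and 101 per kb in EV, while in EV RPF Ncapd2 and Smc4 are alike at 72.7 and 71.3.

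RPF were next compared with input within each genotype, a comparison the choice of genes did not use. It shows which mRNAs had many or few footprints for their level, relative to the typical gene, whose median lay at 0.02 (EV) and 0.025 (OE) on the log2 scale. In EV cells Smc4 and Ncaph2 carried fewer footprints than their mRNA level, Ncaph carried more, and the other 5 subunits did not pass. That is 3 of 8 condensin genes, against 37.7% of all genes past the threshold. In OE cells it was 3 of 8 (Smc4, Ncaph2 and Ncapg2, all lower), against 36.8% of all genes. Both shares lie near the background, so the number of calls is no result about condensin.

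Smc4, the larger of the ATPase pair (ENSMUSG00000034349.14, chromosome 3, 69004738 to 69034623), had EV input values of 459.5 and 501 and EV RPF values of 292 and 258. Both RPF libraries lay below both input libraries. Its log2 change from input to RPF was -0.80 (SE 0.12, adjusted p = 2.62e-06) in EV and -0.64 (SE 0.12, adjusted p = 6.32e-05) in OE. Smc2, its ATPase partner (ENSMUSG00000028312.19, chromosome 4, 52439243 to 52488260), had EV input values of 112 and 121 and EV RPF values of 121 and 143, which overlapped. Its change was 0.18 (SE 0.15, adjusted p = 0.375) in EV and 0.21 (SE 0.15, adjusted p = 0.283) in OE. Coding sequence made up 89.5% of the Smc4 transcript and 66.2% of the Smc2 transcript, and the part of untranslated ends in these values was not tested.

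Ncaph2, the kleisin of condensin II (ENSMUSG00000008690.15, chromosome 15, 89355719 to 89372826), had EV input values of 200 and 167 and EV RPF values of 82.4 and 86.6. Its OE values were 173 and 180 in input and 79.6 and 68.2 in RPF. In both genotypes the RPF libraries lay below the input libraries. The log2 change was -1.10 (SE 0.15, adjusted p = 9.04e-07) in EV and -1.25 (SE 0.15, adjusted p = 1.27e-07) in OE. This gene is the least certain of the 8. Exons of the antisense neighbours Sco2 and Tymp cover at most 32.5% of its exon bases, a share summed over both neighbours. Strand handling in the counting is not given, and coding sequence is only 55.3% of its transcript. Of its coding 28-base stretches, 65.8% were unique because a processed pseudogene shares the rest.

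Ncaph, the kleisin of condensin I (ENSMUSG00000034906.15, chromosome 2, 127103809 to 127133954), ran the other way in EV cells. Its EV values were 52.6 and 70.0 in input and 99.6 and 89.6 in RPF, without overlap. The log2 change was 0.63 (SE 0.20, adjusted p = 0.0123). In OE its values were 46.6 and 54.6 in input and 69.1 and 53.9 in RPF, which overlapped, with a change of 0.27 (SE 0.20, adjusted p = 0.3004). The EV call rested on few reads: the adjusted p was 0.169 without the first EV input library, 0.125 without the first EV RPF library and 0.0857 with DESeq2. The call in EV and its absence in OE do not show a difference between the genotypes, whose own test gave -0.36 (SE 0.28, adjusted p = 0.929).

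For Ncapg, Ncapd2 and Ncapd3, all HEAT repeat subunits, the change from input to RPF did not pass in either genotype. Their log2 changes from input to RPF ranged from -0.03 (Ncapd3, EV, SE 0.18) to 0.26 (Ncapg, OE, SE 0.16). The lowest adjusted p among these 6 values was 0.214. Exons of the antisense gene Lcorl cover 13.4% of the exon bases of Ncapg, and strand handling in the counting is not given.

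**Figure D3:**
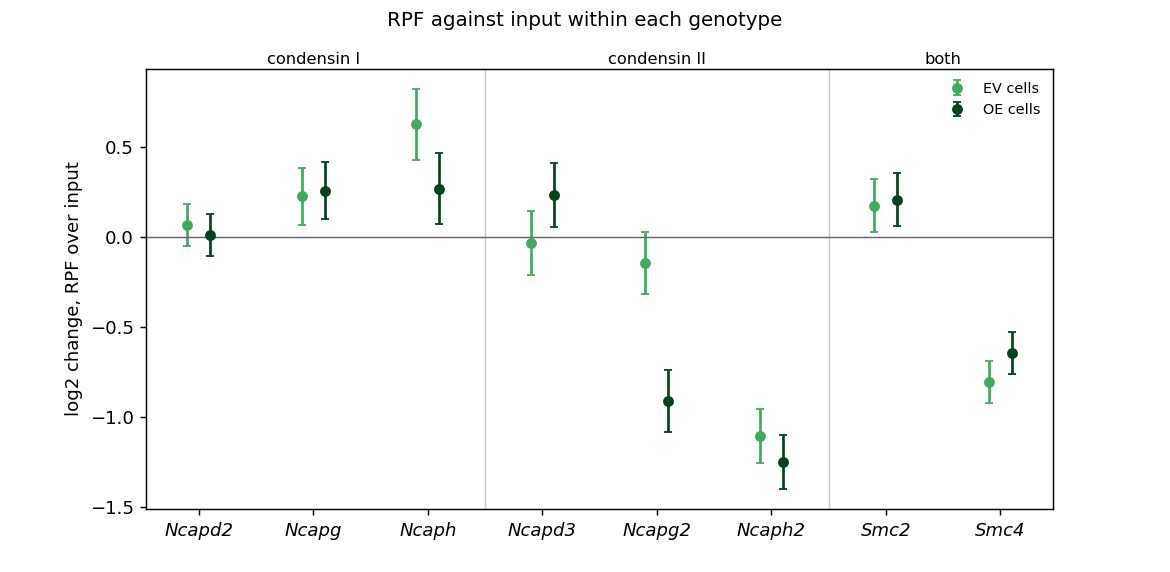
Log2 change from input to RPF (y axis) of each condensin gene in EV and OE cells, with bars for 1 SE of the limma fit. Smc4 and Ncaph2 lie below 0 in both genotypes (-0.80 and -1.10 in EV), while Ncapg2 lies at -0.14 in EV and -0.91 in OE.

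Between the genotypes, 0 of the 7 condensin mRNAs other than Ncapd2 passed the threshold with limma, against 1.5% of all genes. Of these 7, 0 had an unadjusted p under 0.05, against 1245 of all 9307 genes. With edgeR 0 passed, against 60 of 9307, and with DESeq2 0, against 15 of the 5698 genes given an adjusted p. The median log2 change of the 8 mRNAs was -0.11 (-0.05 without Ncapd2), against -0.004 over all genes. The kleisin Ncaph was at -0.26 (SE 0.20, adjusted p = 0.605), and at -0.06 without the second EV input library and -0.47 without the first. Its partner Ncapg was at -0.04 (SE 0.16, adjusted p = 0.947). In condensin II, Ncapd3 (ENSMUSG00000035024.16, chromosome 9, 27030175 to 27095315) read 68.0 and 77.7 in EV input and 57.8 and 58.6 in OE input. Both OE libraries lay below both EV libraries, with a log2 change of -0.32 (SE 0.18, adjusted p = 0.461). Ncapg2 was at 0.18 (SE 0.17, adjusted p = 0.697) and Ncaph2 at -0.05 (SE 0.15, adjusted p = 0.923). Smc2 was at -0.02 (SE 0.15, adjusted p = 0.964) with a 95% interval of -0.33 to 0.28, and Smc4 at -0.18 (SE 0.12, adjusted p = 0.542). In input 3 genes (Ncapd2, Ncapd3 and Smc4) lay lower in both OE libraries, as 19.4% of all genes did, and 1 (Ncapg2) lay higher, as 21.2% did.

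In RPF, 0 of the same 7 passed with limma, against 0.956% of all genes. Of the 7, 2 (Ncaph and Ncapg2) had an unadjusted p under 0.05, against 953 of all 9307 genes. With edgeR 2 passed, against 304 of 9307, and with DESeq2 0, against 25 of the 3533 genes given an adjusted p. The median of the 8 was -0.12 (-0.05 without Ncapd2), against -0.002 over all genes. The OE libraries lay below the EV libraries without overlap in 4 genes, namely Ncapd2, Ncaph, Ncapg2 and Ncaph2, as they did in 22.2% of all genes. Ncaph had a log2 RPF change of -0.62 (SE 0.20, adjusted p = 0.164), and -0.44 without the second OE RPF library. It passed in an edgeR test of the recovered reads (-0.59, adjusted p = 0.0229) and with the 4 RPF libraries alone (adjusted p = 0.0463). Ncaph2 was at -0.19 (SE 0.15, adjusted p = 0.7299). The ATPases did not pass, with Smc2 at 0.01 (95% interval -0.29 to 0.31) and Smc4 at -0.02 (-0.26 to 0.22). Ncapg was at -0.01 (-0.33 to 0.32) and Ncapd3 at -0.05 (-0.42 to 0.32).

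With single libraries left out, the log2 change of Ncapd2 lay between -0.608 and -0.464 for mRNA and between -0.687 and -0.498 for RPF. Of the 7 other subunits, 0 passed for either readout in any of these fits.

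Ncapg2, a HEAT repeat subunit of condensin II (ENSMUSG00000042029.7, chromosome 12, 116405402 to 116463731), was the one subunit whose libraries separated in opposite directions in input and RPF. Input stood at 97.6 and 98.1 for EV and at 111 and 112 for OE, both OE libraries being higher. Footprints stood at 93.6 and 83.6 for EV and at 68.6 and 50.3 for OE, both OE libraries being lower. The mRNA change was 0.18 (SE 0.17, adjusted p = 0.697) and the RPF change -0.58 (SE 0.17, adjusted p = 0.122), neither past the threshold. With edgeR the RPF change was -0.54 (adjusted p = 0.0449), and without the second OE RPF library the limma value was -0.36. The small spread of the input values within a genotype (SD 0.363 and 0.731, n = 2) is below counting error for 69 to 84 reads and does not measure precision.

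Translational efficiency (TE), here RPF change less mRNA change, was -0.77 for Ncapg2 (SE 0.24, 95% interval -1.27 to -0.27, unadjusted p = 0.00381, adjusted p = 0.899 with limma). No gene of the table passed for TE (0%), and 508 genes (5.46%) had an unadjusted p under 0.05. edgeR called 1 gene and DESeq2 none of the 9307, and 0 condensin genes passed with either tool. In the authors' deposited table the log2 TE change of Ncapg2 was -0.74 with an unadjusted p of 0.0367, the 44th smallest of all genes. The other 7 subunits ranged in the present fit from -0.36 (Ncaph, SE 0.28) to 0.26 (Ncapd3, SE 0.25), and the lowest adjusted p among the 6 tested was 0.929. Ncaph2 was at -0.14 (SE 0.21, adjusted p = 0.972). The median TE change of the 8 was -0.01, against -0.006 over all genes. Within OE cells RPF of Ncapg2 were below input, at -0.91 (SE 0.17, adjusted p = 1.08e-04), and in EV cells the change was -0.14 (SE 0.17, adjusted p = 0.551).

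**Figure D4:**
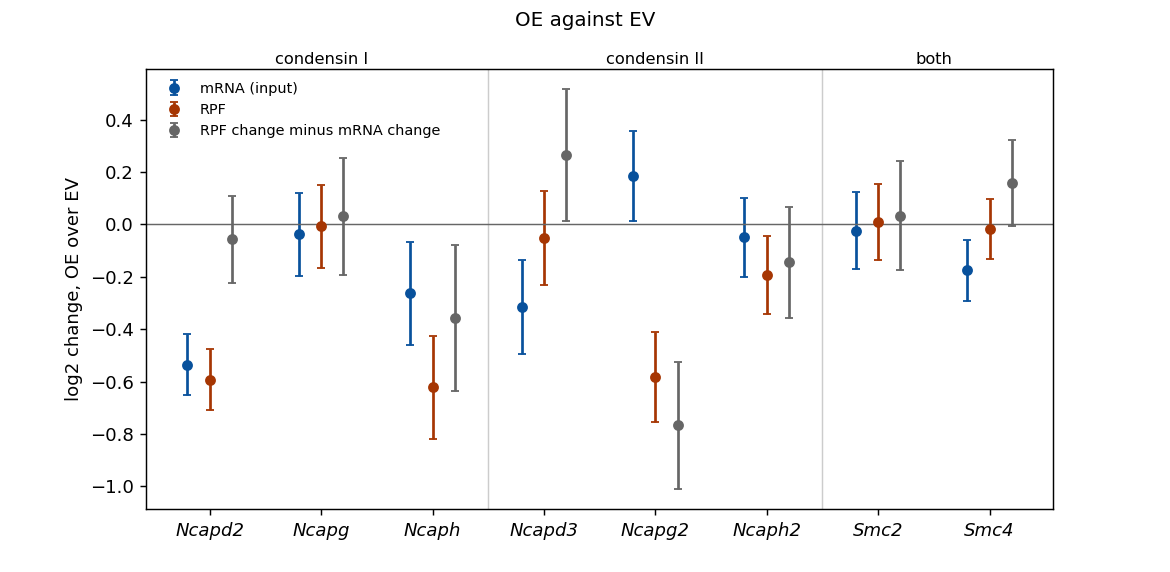
Log2 change of OE over EV (y axis) for mRNA, for RPF and for their difference (RPF minus mRNA), with bars for 1 SE of the limma fit. Ncapd2 is low for both mRNA and RPF (-0.54 and -0.59) and near 0 for their difference, whereas Ncapg2 is at 0.18 for mRNA and -0.58 for RPF.

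Related genes were taken from 4 lists. Of 18 genes for cohesin, the ring that holds sister chromatids together, and its regulators, 0 passed for mRNA and 0 for RPF between the genotypes, with medians of -0.19 and -0.14. Of 8 listed genes of the SMC5/6 complex, the repair relative of condensin, 0 passed in either, with medians of -0.05 and 0.12. Among 21 condensin regulators and mitotic chromosome partners, only Cdk1 passed. Cdk1, the mitotic kinase that phosphorylates condensin, read 248 and 201 in EV input and 156 and 161 in OE input. Its footprints read 403 and 425 for EV and 282 and 286 for OE, and the genotypes did not overlap in either. It fell in both, by 0.49 on the log2 scale in mRNA (SE 0.12, adjusted p = 0.02995) and by 0.54 in RPF (SE 0.12, adjusted p = 0.0167), with a TE change of -0.05 (SE 0.17). These are limma calls. With DESeq2, 0 genes passed as lower in mRNA, so the mRNA call of Cdk1 did not hold there. In this list 13 of 21 genes lay below 0 in mRNA and 13 in RPF. Their medians were -0.19 and -0.09, against -0.004 and -0.002 over all genes. Top2a and Mki67 of the same list were picked after their values were seen, and members at or above 0 are not named. These 2 genes therefore do not stand for the list. The topoisomerase Top2a read 483 and 535 in EV input and 384 and 443 in OE input (log2 change -0.30, SE 0.10, adjusted p = 0.1198). Mki67, a surface protein of mitotic chromosomes, read 236 and 243 in EV input and 193 and 210 in OE input (log2 change -0.25, SE 0.13, adjusted p = 0.419). Neither passed. In input both OE libraries lay below both EV libraries in each gene, as in 19.4% of all genes. In RPF Top2a read 659 and 680 for EV and 530 and 543 for OE (log2 change -0.32, adjusted p = 0.138), whereas Mki67 overlapped, with 125 and 151 for EV and 127 and 131 for OE (log2 change -0.09, adjusted p = 0.876).

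Proliferation genes are given beside the values of Ncapd2, since condensin mRNAs are made mostly in dividing cells. Of 25, Mcm6, a subunit of the replicative helicase, rose in mRNA (0.49, SE 0.12, adjusted p = 0.0381), and 0 passed in RPF. Of the 25, 14 lay below 0 in mRNA and 19 in RPF. Their medians were -0.04 and -0.13, against -0.004 and -0.002 over all genes. The part of cell cycle state in the lower Ncapd2 values was not tested.

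In EV cells the lists are given by their counts past the threshold for RPF against input, beside the 37.7% of all genes that passed (1726 higher and 1779 lower). Of 18 cohesin genes 2 were higher and 6 lower, including the loader Nipbl (-1.16), the release factor Wapl (-1.20) and Pds5a (-0.91), while Pttg1 (securin) was higher (0.89). Of 8 genes in the SMC5/6 list 0 were higher and 3 lower, namely Slf2 (-1.82), Smc6 (-1.02) and Slf1 (-0.83). The 21 condensin partners split into 9 higher and 7 lower. Cdk1 (0.89) and Ppp2r1a, a phosphatase scaffold (0.87), were higher, and Kmt5a, a histone methyltransferase (-1.81), and the casein kinase subunit Csnk2a1 (-3.62) were lower, and whether copies similar to Csnk2a1 took part of its reads was not examined. The 25 proliferation genes were 11 higher and 3 lower, with Rrm1 (1.11), Rrm2 (1.16) and Mcm3 (0.89) higher and the transcription factor Foxm1 (-1.44) lower. Among SMC ATPases of the other complexes, Smc6 was thus lower. The cohesin subunit Smc1a, picked after its values were seen, was higher (0.41, SE 0.12, adjusted p = 0.00763). Its ATPase partner Smc3 read 230 and 220 in EV input and 231 and 240 in EV RPF.

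The likeness of expression patterns was described by Pearson's r over the 8 libraries, after centring input and RPF libraries apart, among 2386 genes. Whether libraries of 1 genotype come from separate cultures is not stated, so r gives no test. For Ncapd2, r mainly follows the genotype difference. Smc2 hardly differed between the genotypes (log2 change -0.02 in mRNA and 0.01 in RPF), so its r mainly follows differences between replicate libraries. Closest to Ncapd2 were Wnk1 (r = 0.979), Tmpo (0.974), Cdca3 (0.972), Kif2c (0.966) and Tnrc18 (0.964). Among the condensin genes Ncaph came closest to Ncapd2 (r = 0.746, position 246), and Smc2 was unlike it (r = -0.115). Closest to Smc2 were Rabgap1 (0.964), Igf1r (0.962), Aifm1 (0.885), Hspa8 (0.884) and Xpnpep1 (0.881), and among the condensin genes Ncapg (r = 0.61, position 102).

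Codon use was described because METTL1 modifies, among others, the arginine tRNA that reads AGA codons. AGA made up 20% of arginine codons in the median gene of 9283 with a complete coding sequence. The share was highest in Ncapg, where 23 of 50 arginine codons were AGA (46.0%, above 93.3% of genes). It was also high in Smc4 (23 of 56, 41.1%) and Smc2 (17 of 42, 40.5%). Ncapd3 had 31.9%, Ncapg2 27.3%, Ncaph 20% and Ncaph2 18.9%. Ncapd2 had the lowest share, 10 of 84 (11.9%, above 31.2% of genes). As a share of all codons Ncaph was lowest (0.684%), just below Ncapd2 (0.718%). The subunits richest in AGA also had few G or C at the third codon base (35.3% in Ncapg and 35.1% in Smc4, against 61.6% in Ncapd2 and a median of 59.7%).

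The stretches of 20 codons with the most AGA are shown for the 2 extremes, with in-frame AGA codons in capitals. They span codons 238 to 257 of Ncapg (transcript Ncapg-201, chromosome 5) and codons 1370 to 1389 of Ncapd2 (transcript Ncapd2-201, chromosome 6), and each holds 3 AGA codons.

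Ncapg: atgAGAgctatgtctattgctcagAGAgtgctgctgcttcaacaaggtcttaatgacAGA

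Ncapd2: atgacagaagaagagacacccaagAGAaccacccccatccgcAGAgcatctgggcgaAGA

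The TE change was 0.03 (SE 0.22) in Ncapg, the subunit with the highest AGA share by either measure, 0.16 (SE 0.16) in Smc4 and 0.03 (SE 0.21) in Smc2. It was -0.06 (SE 0.17) in Ncapd2, lowest by arginine codons, and -0.36 (SE 0.28) in Ncaph, lowest by all codons. Ncapg2, with the lowest TE change of the 8, had 15 AGA codons of 55, near the middle of the set.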

How the data were processed

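Bowtie and the mm10 build are named in the submitters' processing notes. The version, counting program, strand setting and annotation were not given in the sources used here. Deposited by the authors were 1 signal value per gene and library (reads divided by a size factor), a log2 fold change of TE and an unadjusted p-value. Dividing each deposited signal value by the worth of 1 read in its library gave whole reads for 100% of values (tolerance 1e-06). Listed genes have at least 1 read in every library, so genes without are not analysed here. Of 9307 identifiers, 9306 matched GENCODE mouse release 21. Promoter sequences are RefSeq's (GRCm38.p6), coding sequences GENCODE's.

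In R 4.3.3, limma 3.58.1 fitted 4 group means per gene on log2(value + 1) across the 8 libraries, using its trend of variance on level. A minimum mean value of 1 removed no gene. Log2 changes are on that scale and understate changes of low genes. P-values are two-sided and Benjamini-Hochberg adjusted over all 9307 genes, threshold 0.05. The 5 comparisons were OE against EV in input, in RPF and in TE, and RPF against input within EV and within OE. The fit was tested on simulated data. Alternatives were pseudocounts of 0.5 and 4, a minimum mean of 10, no filter, TMM factors, own libraries only, replicate blocks, edgeR 4.0.16 and DESeq2 1.42.0 on recovered reads, and leaving out each library. The members and lists were chosen with earlier results of these data known. All 8 subunits are named in every comparison, and list members only where past the threshold (at most 4 a list with the smallest p). Also named are the 5 genes most like Ncapd2 and Smc2 among those with a mean value of at least 50. The genes Smc1a, Smc3, Top2a and Mki67 were chosen after their values were seen.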

Additional observations from a re-analysis of the deposited data

Results flagged for a closer look

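Ncapg2 was flagged because its mRNA was higher in both OE input libraries and its footprints were lower in both OE RPF libraries. Of all genes, 21.2% were higher in OE input and 22.2% lower in OE RPF without overlap. The share of genes with both was not counted. The difference between the 2 changes was -0.77 on the log2 scale (SE 0.24, limma, adjusted p = 0.899), so it did not pass over all genes. The unadjusted p was 0.00381, and 5.46% of all genes had one under 0.05. The value ranged from -0.987 to -0.547 when single libraries were left out.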

How the results depend on the processing

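Of 376 values of single subunits under other settings, 370 kept direction and side of the threshold. For Ncapd2 between the genotypes, only the direction was counted. The RPF change of Ncapg turned to 0.019 with edgeR and 0.009 with DESeq2. Of the 7 subunits other than Ncapd2, 0 passed for mRNA or RPF in the main fit. For RPF this became 1 (Ncaph) with the 4 RPF libraries alone, against 162 of all 9307 genes. With edgeR it became 2 (Ncapg2 and Ncaph), against 304 of 9307. Per longest transcript, the EV RPF ratios became 2.646 (Smc4 over Smc2) and 2.29 (condensin I over condensin II), since transcripts include untranslated ends. The condensin I over condensin II ratio of EV input, 0.913 per coding length, became 1.25 per longest transcript and 1.97 without Ncaph2, settings chosen after seeing the data. Leaving out single libraries, the median changes of the subunits, Ncapd2 included, ranged from -0.237 to -0.045 (mRNA) and from -0.239 to -0.074 (RPF). Values near 0 changed sign: for mRNA Ncapg (-0.189 to 0.114), Ncaph2 (-0.181 to 0.081) and Smc2 (-0.082 to 0.033); for RPF Ncapg (-0.148 to 0.134), Ncapd3 (-0.104 to 0.001), Smc2 (-0.113 to 0.131) and Smc4 (-0.174 to 0.138). For TE these were Ncapd2 (-0.151 to 0.038), Ncapg (-0.121 to 0.182) and Smc2 (-0.088 to 0.156), for RPF against input in EV Ncapd2 (-0.027 to 0.162) and Ncapd3 (-0.126 to 0.063), and in OE Ncapd2 (-0.035 to 0.055). The cause was not tested. The called changes of Smc4 and Ncaph2 in both genotypes and of Ncapg2 in OE passed under every alternative run.

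Libraries share only a replicate number. Differences between replicates 1 and 2 correlated between groups at -0.091 to 0.077 over 2387 genes. With the replicate number as a block, 0 of the 7 subunits other than Ncapd2 passed for mRNA, RPF or TE. For RPF against input, 3 of them passed in EV and 3 in OE. All these counts were the same without the block. With input and RPF of a number as 1 culture, 0 passed for TE and 3 each for RPF against input. The replicate block moved the calls over all genes from 140 to 137 for mRNA, and taking input and RPF as 1 culture moved those for TE from 0 to 7.

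Over all genes, the 140 mRNA calls became 60 with edgeR, 15 with DESeq2 and 47 with the input libraries alone. The 89 RPF calls became 304, 25 and 162 in the same settings (RPF libraries alone in the last), and the 0 TE calls became 1 with edgeR. The 3505 calls of RPF against input in EV became 2252 with DESeq2, and the 3422 in OE became 2085. Leaving out single libraries gave 50 to 156 calls for mRNA, 16 to 70 for RPF and 0 to 5 for TE.

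Depth limits the subunits with few reads: Ncaph had as few as 29 input reads, and its SE for a change between genotypes was 0.20, against 0.12 for Ncapd2.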

Other observations

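Of all input reads, the 8 condensin genes together took 0.296% and 0.301% with empty vector and 0.252% and 0.27% in OE cells. In RPF they took 0.257% and 0.246% in EV and 0.225% and 0.194% in OE. The Wilson 95% intervals, which cover counting error only, reached down to 0.279% in EV input and up to 0.287% in OE input. These shares include Ncapd2, for which the set was chosen, so they are given as values only.

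Ratios between subunits of 1 complex are given as values only, and those with Ncapd2 include the values for which the set was chosen. Per kb of coding sequence, Ncapg2 exceeded Ncapd3 by 1.81 and 1.499 times in EV RPF, and stood at 1.33 and 0.962 times in OE RPF. In input the same ratio was 1.90 and 1.67 in EV and 2.54 and 2.53 in OE. Ncapd2 stood at 2.30 and 1.70 times Smc2 in EV RPF and at 1.23 and 1.38 times in OE RPF. Against Ncaph, its partner in condensin I, Ncapd2 stood at 1.71 and 1.67 times in EV RPF and at 1.54 and 1.94 times in OE RPF, values that overlap. No test was made of these ratios.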
